A study of Sus scrofa with 14 samples.

Results

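Cells of pig colostrum and of mature milk were compared through 2 single-cell RNA libraries out of the 14 samples of the series. The library labelled L20 (day 20 of lactation) was set against the library labelled L0 (day 0 of lactation). A deposited barcode was kept as a cell where it held at least 300 genes and no more than 25% mitochondrial UMIs, a UMI standing for 1 captured RNA molecule. This left 32085 milk cells, 17571 of 22257 barcodes labelled L0 and 14514 of 18733 labelled L20. Cells with at least 2 UMIs over EPCAM, CLDN4 and KRT18, genes of simple epithelium, are called epithelial-marked and numbered 2762 and 718. Cells with 0 UMIs of these genes are called marker-free and numbered 13655 and 13391. The 1154 and 405 cells with a single such UMI entered the sums over all cells only.

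The study followed the mammary gland of the sow (Sus scrofa) over gestation, lactation and involution. The sows had given birth before, and the sources used here name no genetic change and no treatment. Milk gave 1 library per stage, so each difference below lies between 2 libraries with no replicate check, and sow, milking, library and stage cannot be told apart. The tissue field of both labels reads mammary gland, while the methods describe cells taken from milk. Intervals are exact 95% intervals and cover counting error only. "Higher" and "lower" are used of L20 relative to L0 for a ratio past 2-fold, as a description with no test.

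The stage labels of these libraries need care. With more than 300 genes and under 25% mitochondrial UMIs, the library labelled L0 kept 17513 cells and the library labelled L20 kept 14445. A plot in the study gives the larger cell number, the larger epithelial share and the smaller T-cell share to L20, the reverse of these libraries. The study's text gives macrophages a larger share in colostrum than in mature milk, by clusters and not by marker gates. Macrophage genes summed over all cells leaned towards L20 here. The labels were kept as deposited, L0 and L20 below stand for the libraries so labelled, and every direction would turn if the labels had been exchanged. The 2 libraries shared 284 barcodes, while the other pairs of the 6 libraries read here shared 70 to 197. The kept cells held 80995806 UMIs in L0 and 42948881 in L20. Median depth per cell was close in marker-free cells, at 1187 and 1239 UMIs, though the upper deciles were 2383 and 4163. In epithelial-marked cells the medians were far apart, at 18716.5 and 4516.5 UMIs. Doublets were not removed, since the doublet caller Scrublet marked 1 cell in L0 and 0 in L20 and so had not worked.

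Milk carries living cells out of the gland. Luminal cells shed from the alveoli hold transcripts of the caseins and whey proteins, which they secrete through the endoplasmic reticulum with the help of the chaperones of the unfolded protein response. Neutrophils, macrophages and T cells enter milk from the tissue, and colostrum supplies the newborn piglet with antibodies.

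Epithelial-marked cells took a smaller share of L20 than of L0, and T-marked cells a larger one. Epithelial-marked cells made up 15.7% (15.2 to 16.3) of the cells of L0 and 4.95% (4.60 to 5.31) of those of L20, 3.18-fold lower (2.93 to 3.45). T-marked cells, with at least 2 UMIs over the T-cell genes CD3D, CD3E and CD2 and no epithelial marker UMI, made up 1.35% (1.18 to 1.53) and 6.55% (6.15 to 6.96), a ratio of 4.85 (4.20 to 5.62). Both orders stood when each cell was thinned to 1000 UMIs, with 4567 and 3866 shallower cells left out: epithelial-marked cells were then 5.47% and 2.26%, and T-marked cells 1.12% and 5.52%. Among epithelial-marked cells, which should lack T-cell genes, 0.145% and 0.557% held at least 2 such UMIs. T-marked cells had medians of 1787 and 1742.5 UMIs.

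Cells marked by CSF3R and IL1R2, receptors of neutrophils and other myeloid cells, were the largest marked set of both libraries. They made up 47.6% (46.9 to 48.3) of L0 and 44.4% (43.6 to 45.2) of L20. By CSF3R alone, a choice made after the values were seen, the order turned, at 35.0% and 40.6%. Of epithelial-marked cells, which should lack these receptors and were deeper, 31.5% in L0 and 15.5% in L20 held at least 2 such UMIs, and the parts of free RNA, doublets and depth in this were not tested. The median depth of CSF3R-marked cells was 1217 and 1262 UMIs.

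Cells marked by C1QA, C1QB and C1QC, complement genes of tissue macrophages, made up 0.455% (0.361 to 0.566) of L0 and 1.19% (1.02 to 1.37) of L20. After thinning the shares were 0.654% and 0.826%, a ratio of 1.26 (0.928 to 1.72), an interval that holds 1. The bar on epithelial marker UMIs was applied to the thinned counts, so cells barred at full depth could enter. C1Q-marked cells of L0 were 80 of 17571 before thinning and 85 of 13004 after. Thinning thus changed the cells as well as the depth, and this ratio cannot show the order at matched depth alone. Among cells without an epithelial marker UMI, the basal keratins marked 0.330% and 0.820% of all kept cells, and the division genes 0.205% and 0.234%, a ratio of 1.14 (0.694 to 1.88). The basal order turned, and the dividing share was lower in L20, where cells with epithelial marker UMIs were counted too, a choice made after seeing the values. The basal keratins then marked 5.36% (5.03 to 5.70) and 3.13% (2.85 to 3.42), and the division genes 0.871% (0.739 to 1.02) and 0.303% (0.220 to 0.407). The C1Q shares were then 1.04% and 1.30%. This count lets in epithelial-marked cells, which took a larger share of L0 and were deeper there, at medians of 18716.5 and 4516.5 UMIs. It was not repeated on thinned cells, so the parts of their share and depth in these orders were not tested. In cells without an epithelial marker UMI, B-cell genes marked 8 and 21 cells. The endothelial set marked 0.603% and 3.20%, but its genes did not move together. In marker-free cells PECAM1, which leukocytes also carry, went from 20.3 to 62.2 CPM, while the endothelial junction gene CLDN5 went from 65.3 to 7.80 CPM, so this set is not called endothelial cells here.

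**Figure D1:**
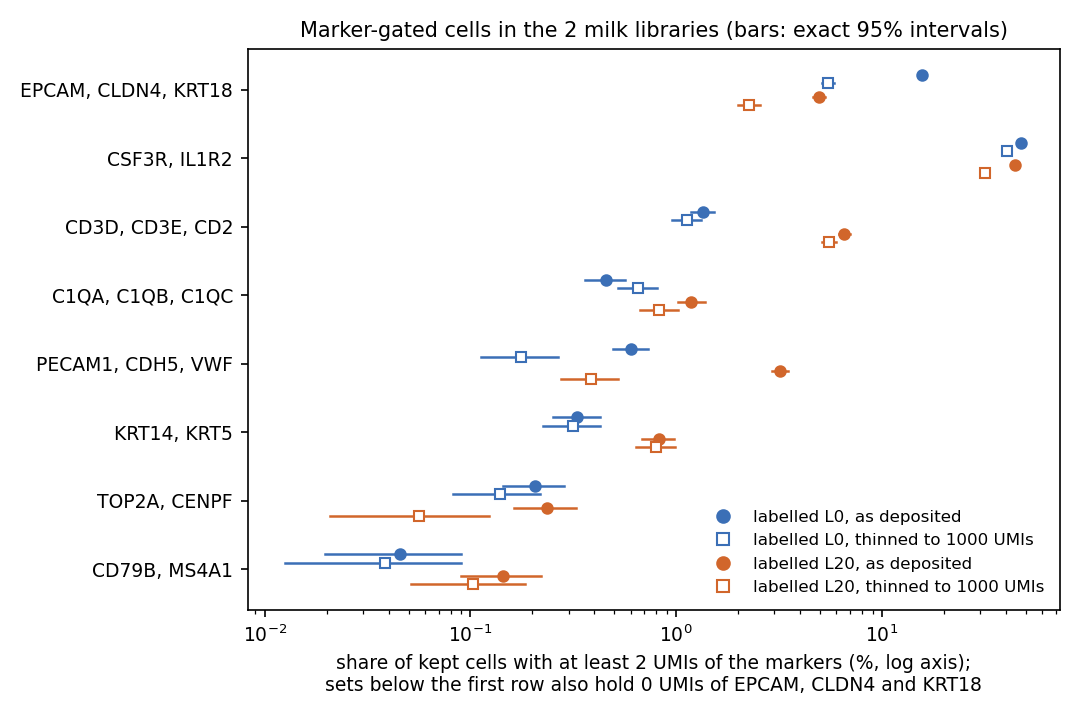
Share of kept cells (%, log axis) with at least 2 UMIs of each marker set, and for every set but the epithelial one 0 epithelial marker UMIs, in the milk libraries labelled L0 and L20, as deposited and with each cell thinned to 1000 UMIs, with exact 95% intervals. Epithelial-marked cells sit at 15.7% and 4.95% and T-marked cells at 1.35% and 6.55%, and both orders stand after thinning.

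Summed over all cells, macrophage and T-cell genes leaned towards L20 and luminal epithelial genes towards L0. In such sums, fewer cells of a type and less RNA per cell cannot be told apart. Levels are given in CPM, UMIs of a gene per 1000000 UMIs of the summed cells, and a gene was counted where the mean of both libraries reached 10 CPM. Of 6727 genes, 1087 (16.2%) were higher and 678 (10.1%) lower, with a median log2 ratio of 0.23. With milk protein and mitochondrial genes taken out of the totals, the split was 763 higher and 1153 lower. Of 14 macrophage genes 11 were higher and 0 lower, and of 12 T and NK cell genes 12 and 0. Of 11 luminal genes 0 were higher and 10 lower. Neutrophil genes did not lean in CPM, with 2 higher and 3 lower of 11, nor did B and plasma cell genes, with 1 and 1 of 3. Without milk protein and mitochondrial genes in the totals, these were 0 and 3 of 11 and 0 and 1 of 3.

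The genes furthest apart over all cells, chosen by size, were as follows. FABP4, a fatty acid carrier of fat cells, endothelium and macrophages, stood at 46.0 CPM in L0 and 2761 CPM in L20. MS4A7, a membrane protein of macrophages, went from 5.02 to 249 CPM, and CCL2, which attracts monocytes, from 31.2 to 1047 CPM. CTSL, a lysosomal protease, went from 75.2 to 2050.2 CPM, and S100A4, a calcium-binding protein, from 18.7 to 444 CPM. All 5 were higher in L20, and each was also higher within marker-free cells. In the other direction, SCRG1, a small secreted protein, stood at 101 CPM in L0 and 2.14 CPM in L20, and CDKN1C, an inhibitor of cell division, went from 120.1 to 5.01 CPM. RAMP3, a partner of calcitonin-family receptors, went from 297 to 16.4 CPM. RHOU, a small GTPase, went from 115 to 8.52 CPM and SPINK9, of a family of protease inhibitors, from 862 to 68.7 CPM. These 5 were lower in L20.

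Within epithelial-marked cells, milk protein genes did not pass 2-fold, while nearly all measured chaperones of the secretory pathway were lower in L20. Genes of the interferon response, complement C3, MGP and CLU were among those higher in L20. Of 5585 genes, 184 (3.29%) were higher and 938 (16.8%) lower, with a median log2 ratio of -0.46. The split rested on the scaling. TMM factors moved the median by 0.44 and gave 392 higher and 336 lower, and DESeq2 factors moved it by 0.47 and gave 408 and 303. Medians of lists are therefore set beside the median of all genes, and the 20 genes furthest apart, named further on, kept their side of 2-fold under each of these scalings.

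Epithelial-marked cells were a different mixture under the 2 labels. Some also held leukocyte RNA, and 2541 and 583 had under 0.1% of their UMIs from the leukocyte genes PTPRC, FCER1G, TYROBP and SRGN. Milk protein genes took a median of 36.0% of the UMIs of a cell in L0, with lower and upper deciles of 14.1% and 44.4%. In L20 the median was 22.2%, with deciles of 0.507% and 52.0%. The cells of L20 thus spread more widely. After these values were seen, cells were split by this share. Milk-protein-rich cells, with at least 20%, numbered 2395 of 2762 and 378 of 718. Cells between 5% and 20% numbered 218 and 169, and milk-protein-poor cells, under 5%, 149 and 171. In the rich cells, 1.98% of 4991 genes were higher and 35.3% lower, with a median log2 ratio of all genes of -0.81. These shares were 6.92% and 18.8% in the cells between 5% and 20%, and 8.4% and 22% in the poor cells.

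Milk protein genes were within 2-fold in CPM over epithelial-marked cells. CSN2, beta-casein, stood at 125187 CPM in L0 and 149607 CPM in L20. PAEP, the beta-lactoglobulin of whey, stood at 128600 and 120798 CPM. CSN1S1, an alpha-casein, stood at 28747 and 46779.5 CPM. All 6 measured genes were within 2-fold, with a median log2 ratio of 0.08, and they summed to 354080 CPM in L0 and 395470 CPM in L20. This too rested on the scaling. TMM factors gave 1 higher, with a median of 0.52, and DESeq2 factors 1, with 0.55. In the rich cells, which were chosen by this RNA, the genes summed to 371467 and 466168 CPM. In the poor cells, also chosen by this RNA, 5 of 6 were lower, with a median of -1.91. Both choices set the milk protein level in part, so nothing is drawn from these values.

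Chaperones and folding enzymes of the endoplasmic reticulum were lower in L20 almost throughout. Of 14 genes tested, 13 were lower and 0 higher, with a median log2 ratio of -1.72 beside -0.46 for all genes. The list summed to 5226 CPM in L0 and 1653 CPM in L20. HSPA5, the chaperone BiP, stood at 886 CPM in L0 and 226 CPM in L20, 3.92-fold lower. HSP90B1, the chaperone GRP94, stood at 830.4 and 239 CPM. XBP1, a transcription factor that drives the response, stood at 556 and 161 CPM. CRELD2, a factor induced by stress of the reticulum, stood at 157 and 24.0 CPM, 6.54-fold lower (5.71 to 7.52). ATF4, a transcription factor of amino acid stress, was the member within 2-fold, at 258 and 156 CPM.

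The chaperone difference was also present among cells rich in milk protein RNA. There 13 of 14 genes were lower, with a median of -1.88, beside 35.3% of all genes lower with a median of -0.81. HSPA5 stood at 884 and 192 CPM in rich cells. In epithelial-marked cells, TMM factors left 10 of 14 lower, with a median of -1.28, and DESeq2 factors left 9, with -1.25. Per cell, the list took a median of 0.471% of UMIs in L0 and 0.122% in L20. Other secretory genes, picked after their values were seen, were PPIB, a folding isomerase, at 1028 and 232 CPM, and SEC61B, part of the channel into the reticulum, at 691 and 277 CPM.

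Genes of milk fat, lactose and nutrient uptake showed a mixed picture, to be read against the 16.8% of all genes that were lower in these cells and the median of all genes of -0.46. None of the 7 genes of the milk fat globule passed 2-fold, with a median of -0.21. Of 17 genes of fatty acid and triglyceride synthesis, 1 was higher and 4 lower, with a median of -0.37. SREBF1, the transcription factor of this pathway, went from 119.5 to 46.0 CPM, and THRSP, a lipogenic nuclear protein, from 25.6 to 54.4 CPM. Of 13 cholesterol synthesis genes, 3 were lower. In the lactose and glucose list 2 of 6 were lower. Amino acid transporters were lower in 3 of 9 cases, and SLC7A5, which carries large neutral amino acids, went from 40.9 to 10.5 CPM. With TMM factors the medians of the milk fat globule, fatty acid and cholesterol lists changed sign, to 0.23, 0.07 and 0.05.

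Signalling genes of lactation differed by member. STAT5A and STAT5B carry the prolactin signal to the nucleus. STAT5A stood at 96.7 and 21.1 CPM and STAT5B at 164 and 44.8 CPM, and both were lower in L20. ELF5, the transcription factor of alveolar fate, stood at 583 and 433 CPM, within 2-fold. Of 7 genes on this axis, 2 were lower in all. CEBPD, a transcription factor induced by STAT3, stood at 553 and 94.4 CPM, 5.86-fold lower (5.47 to 6.28). It was lower in marker-free cells too, at 468 and 68.1 CPM, and in CSF3R-marked cells, at 611 and 69.7 CPM. Its difference was thus not particular to epithelial-marked cells. Movement in both directions was also seen in the LIF and STAT3 list, in which 2 of 9 genes were higher and 2 lower.

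Ion and water transport held members that moved far in both directions. PTHLH, the hormone by which the lactating gland draws calcium from bone, stood at 1.55 CPM in L0 and 67.6 CPM in L20, a ratio of 43.7 (34.9 to 55.4). It was found in 2.42% (1.84 to 3.12) of the rich cells in L0 and 29.1% (24.6 to 34.0) in L20, or 0.125% and 3.18% after thinning. In marker-free cells, as a measure of free RNA, the shares were 0.0146% and 0.127%. The counts behind the thinned shares were 3 and 12 rich cells, too few in L0 to set against marker-free cells. AQP5, a water channel, went from 7.21 to 34.8 CPM, and ATP2B2, the calcium pump of the apical membrane, from 19.4 to 50.04 CPM. SLC30A2, which loads zinc into secretory vesicles, went the other way, from 55.2 to 6.10 CPM. Of 13 genes, 3 were higher and 1 lower.

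The 10 genes furthest up in epithelial-marked cells were chosen by size and are given singly. ADIRF (ENSSSCG00000037918), a factor of fat cell differentiation, stood at 75.6 CPM in L0 and 2181 CPM in L20, a ratio of 28.8 (27.9 to 29.8). MGP (ENSSSCG00000037697), an inhibitor of calcification, stood at 62.1 and 1731 CPM, a ratio of 27.9 (26.9 to 28.9). Within rich cells the difference was smaller, at 54.0 and 637 CPM for ADIRF and 61.8 and 688 CPM for MGP. MGP was found in 18.9% and 38.1% of rich cells, 7.34% and 76.3% of middle cells, and 2.68% and 67.3% of poor cells. ADIRF was found in 16.2% and 44.2% of rich cells and 18.1% and 80.7% of poor cells. In marker-free cells MGP was found in 0.586% and 5.08%.

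The other 8 genes of this set were as follows. CLU, a secreted chaperone, stood at 62.8 and 554 CPM, and TIMP1, an inhibitor of matrix proteases, at 36.5 and 378 CPM. C3, the central complement protein, stood at 26.7 and 228 CPM, and IFI6, an interferon-induced gene, at 65.8 and 574 CPM. SLAMF7, a receptor of leukocytes, stood at 38.4 and 204 CPM, and at 35.7 and 124 CPM in rich cells. In rich cells alone the values were 37.8 and 182 CPM for CLU, 22.8 and 91.1 CPM for TIMP1, 25.1 and 185 CPM for C3 and 60.6 and 582 CPM for IFI6, so the order was the same there. Marker-free cells held 1016 and 8157 CPM of TIMP1, 1005 and 2788 CPM of SLAMF7 and 255 and 1160 CPM of IFI6. They held 62.0 and 137 CPM of CLU, and C3 was within 2-fold there, at 51.9 and 52.6 CPM. The part of free RNA in the rich-cell values was not tested. LGALS3, a galectin also abundant in macrophages, stood at 78.9 and 375 CPM but at 18.9 and 30.4 CPM in rich cells. FABP4 stood at 24.8 and 586 CPM, with 54.6% of its UMIs in L0 from a single cell, and FDCSP, a secreted peptide, at 128 and 836 CPM, with 67.2% from a single cell.

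The 10 genes furthest down in epithelial-marked cells were likewise chosen by size and are given singly. SCRG1 stood at 140.1 CPM in L0 and 2.55 CPM in L20, 54.9-fold lower (36.6 to 86.7), and was found in 72.4% of rich cells in L0 and 2.91% in L20. RAMP3 stood at 319.6 and 42.1 CPM, 7.60-fold lower (6.86 to 8.44). CDKN1C stood at 164 and 15.8 CPM. These 3, and RHOU below, were also among the genes furthest down over all cells. HSD11B1, which regenerates active glucocorticoid, stood at 148 and 21.1 CPM. RCN1, a calcium-binding protein of the reticulum, stood at 115 and 21.2 CPM, and DAB2, an endocytic adaptor, at 293 and 58.5 CPM. The remaining members, besides CRELD2 and CEBPD above, were ZCCHC17, at 221 and 30.6 CPM, and RHOU, at 157 and 29.7 CPM. In marker-free cells ZCCHC17 was also lower, at 185 and 28.6 CPM, while HSD11B1 was higher, at 26.5 and 56.7 CPM.

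**Figure D2:**
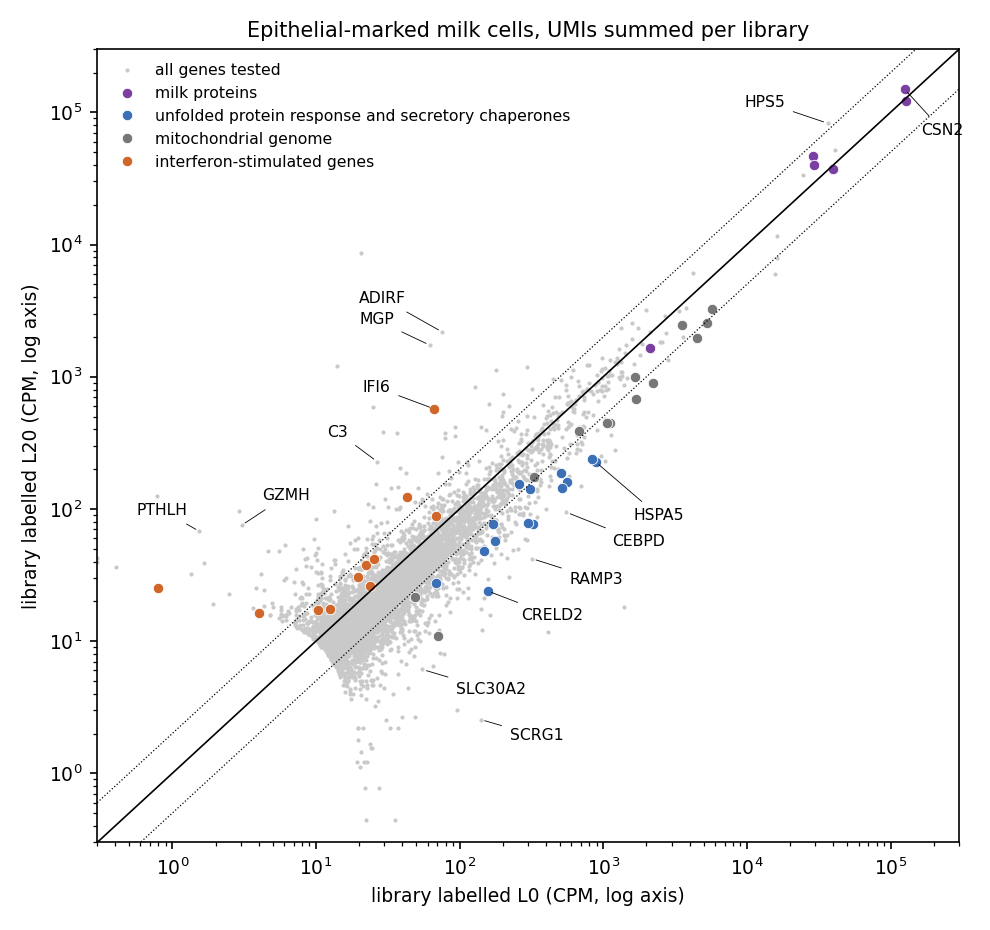
CPM of each gene in epithelial-marked cells of the milk library labelled L0 (x axis) and L20 (y axis), both log axes, 1 point a gene, with list members coloured, the diagonal solid and 2-fold dotted. PTHLH, ADIRF and MGP lie far above the diagonal, at ratios of 43.7, 28.8 and 27.9, most chaperones below the lower dotted line and SCRG1 further down.

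Some of the largest differences lay in genes without a symbol. The gene ENSSSCG00000013369 stood at 20.6 and 8557 CPM and ENSSSCG00000047425 at 0.782 and 126 CPM, both higher in L20. The gene ENSSSCG00000007398 stood at 1404 and 18.2 CPM and ENSSSCG00000036224 at 414 and 11.8 CPM, both lower. The files pair none of them with a name, and they are not identified further.

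Interferon-stimulated genes leaned towards L20 in epithelial-marked cells. Of 11 tested, 4 were higher and 0 lower, and the list summed to 344 and 1089 CPM. IFI6 alone held 65.8 and 574 CPM of these sums, so the summed ratio rested largely on 1 gene. The median was 0.75, beside -0.46 for all genes, and 0.21 in rich cells, beside -0.81. MX1, an antiviral GTPase, went from 0.800 to 25.3 CPM, and ISG15, a ubiquitin-like modifier, from 43.2 to 123 CPM. IFI6 was found in 6.22% of thinned rich cells in L0 and 24.1% in L20. B2M, the light chain of MHC class I, went from 317 to 804 CPM, and SOD2, an antioxidant enzyme induced by NF-kappa-B, from 75.3 to 247 CPM. MHC class II genes were higher in 4 of 5, with a median of 1.06, but the median was -0.90 in rich cells, where that of all genes was -0.81, and -0.59 where cells with leukocyte UMIs were left out. CD74, the invariant chain of MHC class II, stood at 875 and 869 CPM, and the class II list summed to 1006 and 1139 CPM, within 2-fold. Of 4 inflammatory cytokine genes tested, 2 were higher and 1 lower, with a median of 1.06. Their median in rich cells was -0.08, above the -0.81 of all genes there. GZMH, a granzyme of killer lymphocytes, stood at 3.04 and 75.2 CPM and was found in 4.802% (3.98 to 5.74) and 39.4% (34.5 to 44.5) of rich cells, but 1.34% and 0.585% of poor cells. In T-marked cells it was found in 18.1% and 29.9%, and in CSF3R-marked cells, which should lack it, in 0.108% and 0.760%.

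Defence proteins secreted into milk moved singly. PGLYRP1, which binds bacterial peptidoglycan, went from 16122 to 7890.4 CPM, and LTF, the iron-binding lactoferrin, from 2121 to 1642 CPM. LPO, lactoperoxidase, went from 26.7 to 65.8 CPM. PIGR, which carries antibody across the epithelium, went from 1580.0 to 2546 CPM, within 2-fold. JCHAIN, the joining chain of that antibody, went from 227 to 66.6 CPM, with 84.2% of its UMIs in L20 from a single cell.

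Mitochondrial, junction and cell cycle genes leaned towards L0. Of 13 genes of the mitochondrial genome, 8 were lower, with a median of -1.18, and their sum was 27891.5 and 14260.3 CPM. With TMM factors 1 remained past 2-fold. Of 8 tight junction genes 3 were lower, CLDN3, a claudin of secretory epithelium, going from 737 to 347 CPM, and with TMM factors 0 were. Of 5 cell cycle genes 3 were lower, UBE2C, a ubiquitin enzyme of mitosis, going from 20.5 to 1.44 CPM. With TMM or DESeq2 factors 0 of 4 cell cycle genes tested were lower, with medians of -0.40 and -0.37.

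In marker-free cells, genes of lipid handling, lysosomes, macrophages and T cells leaned towards L20, and heat shock and neutrophil genes towards L0. Of 6482 genes, 1531 (23.6%) were higher and 537 (8.28%) lower, with a median log2 ratio of 0.30. TMM factors gave 2145 higher and 333 lower, and DESeq2 factors 2388 and 296.

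Lipid-handling genes of macrophages had the highest median of the lists tested in these cells. Of 14 tested, 12 were higher and 0 lower, with a median of 2.05, and they summed to 3368 CPM in L0 and 20097 CPM in L20. FABP4 stood at 65.8 CPM in L0 and 3217 CPM in L20, a ratio of 48.9 (46.4 to 51.6). SPP1, osteopontin, stood at 473 and 6143 CPM, a ratio of 13.0 (12.7 to 13.3). Both were found in more cells of L20. FABP4 was found in 0.644% and 15.7% of marker-free cells and SPP1 in 9.22% and 26.2%. In T-marked cells, which should lack it, FABP4 was found in 0.422% and 12.8%. SPP1 stood at 21.4 and 550 CPM in T-marked cells, with 59.0% of its UMIs in L20 from a single cell. The parts of free RNA and of depth in these shares were not tested. APOE, a lipid carrier, went from 184 to 1264 CPM, and PLIN2, which coats lipid droplets, from 290.4 to 1227 CPM. TREM2, a lipid receptor of macrophages, went from 6.21 to 57.5 CPM.

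Lysosomal genes moved with them. Of 17 tested, 15 were higher, with a median of 1.39. CTSL stood at 134 and 2608 CPM, a ratio of 19.4 (18.7 to 20.2), and CTSD, another protease, at 791 and 3377 CPM. SMPDL3A, a phosphodiesterase, stood at 59.0 and 717 CPM. Macrophage genes were higher in 8 of 14, with MS4A7 at 15.5 and 319 CPM. The complement genes that define tissue macrophages did not follow: C1QA stood at 121 and 78.6 CPM and C1QB at 189 and 102 CPM. CCL2 stood at 82.1 and 1354 CPM, and the neutrophil attractant CXCL8 moved the other way, at 18448 and 7686 CPM. TIMP1 stood at 1016 and 8157 CPM.

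T and NK cell genes were higher in 12 of 15, with a median of 1.49. IL7R, the receptor for interleukin 7, stood at 10.5 and 144 CPM, a ratio of 13.7 (11.95 to 15.7). It was found in 20.7% and 42.7% of T-marked cells and 0.203% and 4.31% of CSF3R-marked cells. Its level was within 2-fold in T-marked cells, at 253 and 424 CPM. In CSF3R-marked cells it went from 2.80 to 115 CPM and in C1Q-marked cells from 27.3 to 240 CPM, so its difference was not particular to T-marked cells. The share of T-marked cells, given above, moved in the same direction. Outside the T and NK list, S100A4 stood at 49.8 and 531 CPM in marker-free cells. BST2, an interferon-induced membrane tether, stood at 16.8 and 173 CPM, and ENPP1, an ectoenzyme, at 29.9 and 289.9 CPM. In L20, ENPP1 stood at 58.2 CPM in T-marked and 884 CPM in C1Q-marked cells.

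Heat shock and early response genes leaned towards L0. Of 12 tested, 8 were lower and 1 higher, with a median of -1.27, or 6 lower with TMM factors. HSP70.2, an inducible chaperone outside that list, stood at 8187 CPM in L0 and 732 CPM in L20, 11.2-fold lower (11.04 to 11.3). DNAJB1, its co-chaperone, stood at 2085 and 264 CPM, and HSPH1, an exchange factor, at 1451 and 249 CPM. HSP70.2 was found in 57.2% of cells in L0 and 10.4% in L20, or 53.7% and 8.72% after thinning. The order thus stood at matched depth. The 10 genes furthest down in marker-free cells, chosen by size alone, also held the histone genes H1-3, at 594 and 59.3 CPM, H1-2, at 241 and 31.4 CPM, H2BC21, at 516 and 62.3 CPM, and H2AC6, at 189 and 25.5 CPM.

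Neutrophil genes were lower in 7 of 11, with a median of -1.15. With TMM or DESeq2 factors 5 of 11 were lower, with medians of -0.89 and -0.80. S100A12, a calcium-binding alarmin, stood at 15555 and 7100.4 CPM, and MMP8, the collagenase of neutrophil granules, at 632 and 76.3 CPM. RGS2, a brake on G-protein signalling, stood at 2601 and 293 CPM, and IL1R2, a decoy receptor for interleukin 1, at 1798 and 219 CPM. S100A8, another alarmin of neutrophils, stood within 2-fold at 3725 and 2052 CPM. RAMP3 stood at 243 and 9.20 CPM and was found in 30.8% of T-marked and 27.4% of CSF3R-marked cells in L0, against 98.1% of rich cells, and after thinning in 14.2%, 20.6% and 26.7%.

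Milk protein RNA, which leukocytes do not make, was present in marker-free cells of both libraries. It summed to 21017 CPM in L0 and 6827 CPM in L20, and all 6 genes were lower. Its part in the other results was not tested. Secretory chaperones went against their order in epithelial-marked cells, with 6 of 15 higher, 0 lower and a median of 0.89, and HSPA5 at 297 and 551 CPM. Of the 4648 genes tested in both sets of cells, 139 were higher and 659 lower in epithelial-marked cells, and 1207 and 278 in marker-free cells. Among them 90 were lower in epithelial-marked and higher in marker-free cells, 3 the reverse, 76 higher in both and 96 lower in both. Whether these overlaps differ from what the totals alone would give was not tested.

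Interferon-stimulated genes leaned towards L20 in marker-free cells as well. In marker-free cells 11 of 23 were higher and 0 lower, with a median of 0.88. IFI6 stood at 255 and 1160.5 CPM and MX1 at 16.2 and 154 CPM, a ratio of 9.54 (8.54 to 10.7). ISG15 stood at 630.3 and 1164 CPM, and IFIT1, an RNA-binding antiviral protein, at 668 and 596 CPM. ISG15 and IFIT1 were within 2-fold, so the lean was not shared by every member. The 250 bases before the RefSeq gene start (Sscrofa11.1) were searched on both strands for GAAA followed after any 2 bases by GAAA, the core of the element bound by interferon-activated factors. It was present before 9 of 22 tested members (40.9%) and before 588 of all 19534 genes searched (3.01%). The list was made of genes of this response, so that share describes the list and not the milk libraries. Members within 2-fold also held the element, such as HERC5 at 153 and 137 CPM and OAS2 at 272 and 254 CPM. The windows of ISG15 (chr6:63362951-63363200, plus strand) and IFI6 (chr6:84858073-84858322, minus strand), named members of the list that hold it, follow 5′ to 3′ with the matches in capitals.
ISG15: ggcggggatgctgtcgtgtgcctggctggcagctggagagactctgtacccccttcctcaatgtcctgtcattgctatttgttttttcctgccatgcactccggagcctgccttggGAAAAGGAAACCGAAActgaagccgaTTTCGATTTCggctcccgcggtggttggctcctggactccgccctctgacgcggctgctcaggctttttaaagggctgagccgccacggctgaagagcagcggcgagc
IFI6: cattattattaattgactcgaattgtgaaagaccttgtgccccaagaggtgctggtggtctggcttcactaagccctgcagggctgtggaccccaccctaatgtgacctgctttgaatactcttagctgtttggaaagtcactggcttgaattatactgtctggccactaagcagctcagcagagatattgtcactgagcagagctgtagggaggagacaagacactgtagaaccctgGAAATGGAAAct

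The T-marked, C1Q-marked and CSF3R-marked cells shared that direction. T-marked cells numbered 237 in L0 and 950 in L20, and C1Q-marked cells 80 and 172. In L0 these held 467258 and 769178 UMIs. Genes near 10 CPM thus rested on few UMIs there, and counts of members in the T-marked and C1Q-marked sets are less firm. Backgrounds were 8.85% higher and 8.89% lower in T-marked cells, 6.66% and 14.3% in C1Q-marked cells, and 31.6% and 10.3% in CSF3R-marked cells. Interferon-stimulated genes were higher in 14, 13 and 11 of 23, and lower in 0 of them in each. IFI6 went from 32.1 to 682 CPM in T-marked, from 208 to 2499 CPM in C1Q-marked and from 221 to 1212 CPM in CSF3R-marked cells. It was found in 3.38% and 32.8% of T-marked cells. Heat shock genes were lower in 6, 8 and 8 of 12, and DNAJB1 went from 1646 to 240.0 CPM in T-marked and from 1472 to 234 CPM in CSF3R-marked cells.

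Counts in other lists varied between these sets of cells, and the differences between sets were not tested. Lysosomal genes were higher in 16 of 17 in CSF3R-marked cells, 9 in T-marked cells and 1 in C1Q-marked cells. In the T-marked cells macrophage genes moved with them, 8 of 11 being higher with a sum of 149.8 CPM in L0 and 753 CPM in L20, as were 11 of 13 lipid-handling genes. The part of macrophage RNA in the lysosomal count was not tested. SPP1 went from 1617 to 25990.3 CPM in C1Q-marked and from 288 to 6517 CPM in CSF3R-marked cells. FABP4 was found in 8.75% and 72.1% of C1Q-marked cells, whose median depth was 6366.5 and 17722.5 UMIs, or in 5.26% and 65.3% after thinning. Of its UMIs in the C1Q-marked cells of L0, 59.2% came from a single cell. MHC class II genes, which present antigen, were lower in 6 of 7 in C1Q-marked cells, with CD74, the invariant chain, going from 14616 to 3526 CPM. In CSF3R-marked cells 2 of 5 were higher, near the background share of 31.6%. Cell cycle genes were lower in 7 and higher in 1 of 13 in T-marked cells, TOP2A, a topoisomerase of dividing cells, going from 96.3 to 10.6 CPM. Ribosomal protein genes were higher in 50 of 55 in CSF3R-marked cells and in 0 in T-marked cells. Entry to the CSF3R-marked set also counted IL1R2, which was itself lower in L20. CSF3R alone would have kept 6157 of its 8365 cells in L0 and 5897 of its 6449 cells in L20. The part of this unequal entry in the values of CSF3R-marked cells, here and above, was not tested. The CSF3R-marked and C1Q-marked sets shared 26 cells in L0 and 78 in L20.

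**Figure D3:**
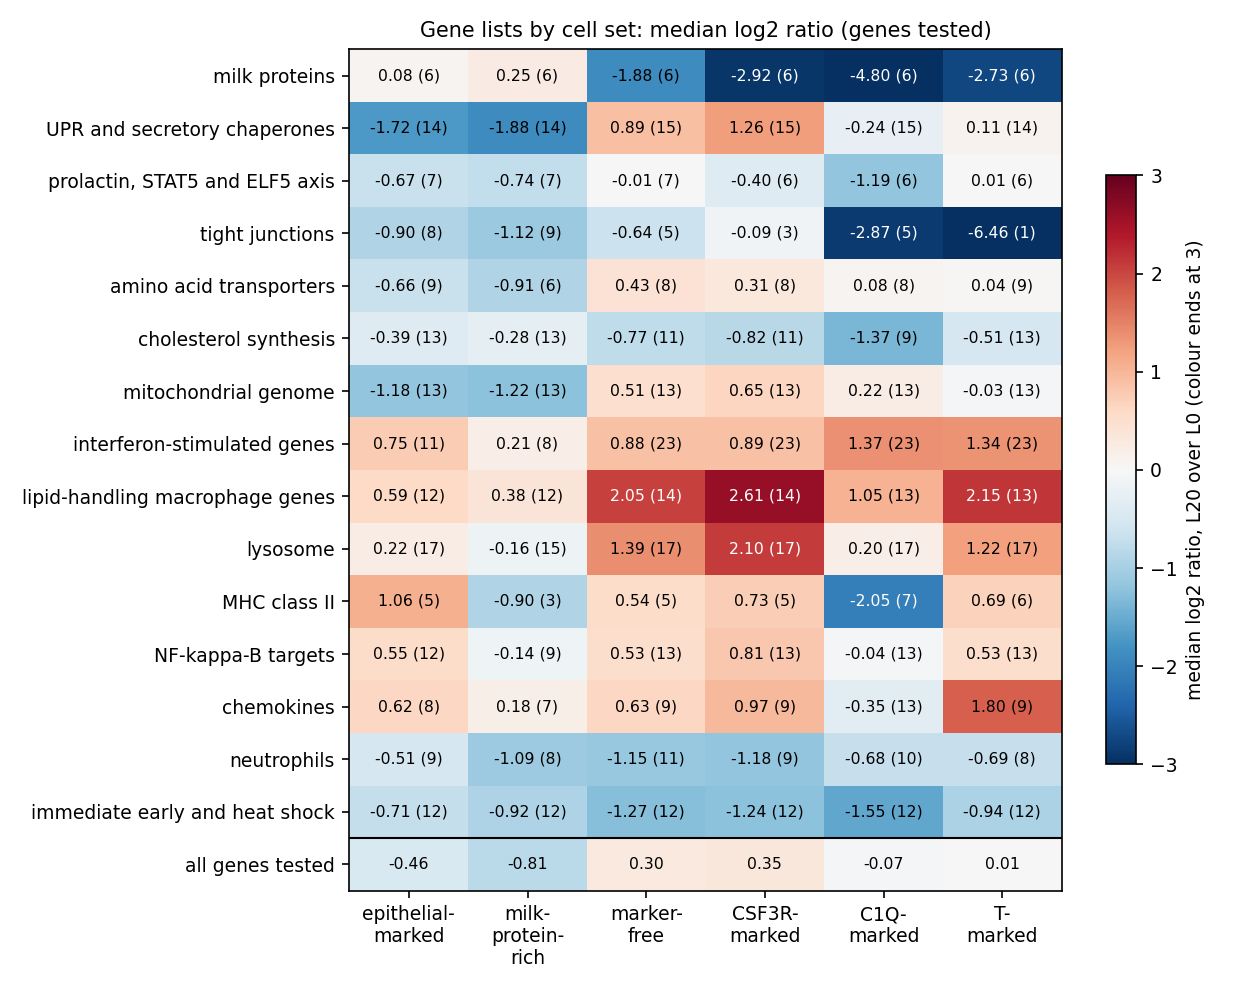
Median log2 ratio of L20 over L0 for selected gene lists (down) in each set of milk cells (across), and for all genes tested at the foot, with the number of genes tested in brackets and the colour scale ending at 3. Secretory chaperones are at -1.72 in epithelial-marked and 1.26 in CSF3R-marked cells, and interferon-stimulated genes are above 0 in both.

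Nuclei of the gland at the same labelled days, 2 libraries per day, were set beside the milk cells. They are nuclei and not cells, so only the order of the days is compared, with values of epithelial-marked nuclei, 1809 and 1002 at L0 and 2286 and 641 at L20. An exchange of the milk labels would turn the milk order alone. Milk protein genes summed to 19321 and 18356 CPM in L0 nuclei and 2256 and 649 CPM in L20 nuclei. That order was absent from epithelial-marked milk cells, where the sums were within 2-fold. Over all milk cells these genes summed to 254992 CPM in L0 and 91762 CPM in L20, in the order of the nuclei. Secretory chaperones summed to 755 and 753 CPM in L0 nuclei and 1189.7 and 894 CPM in L20 nuclei, with both L20 libraries above both L0 libraries, the opposite order to milk. HSPA5 stood at 16.9 and 12.2 CPM in L0 nuclei and 83.4 and 53.5 CPM in L20 nuclei. Cell cycle genes summed to 137 and 92.1 CPM in L0 nuclei and 281 and 156 CPM in L20 nuclei, also opposite to milk. Most of the 38 gene lists had both L20 libraries above both L0 libraries in these nuclei. Fibroblast genes, for example, summed to 142 and 47.9 CPM in L0 nuclei and 312 and 695 CPM in L20 nuclei. The order was thus not particular to the lists named.

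Other genes kept the order seen in milk. Interferon-stimulated genes summed to 1073 and 709.6 CPM in L0 nuclei and 1289 and 1462 CPM in L20 nuclei. CLU stood at 106 and 30.5 CPM in L0 nuclei and 1865 and 1678 CPM in L20 nuclei, PTHLH at 0.301 and 0.610 CPM in L0 nuclei and 29.5 and 2.15 CPM in L20 nuclei and TIMP1 at 2.86 and 0.610 CPM in L0 nuclei and 56.7 and 11.6 CPM in L20 nuclei. In these, both L20 libraries were above both L0 libraries, the order that most gene lists had in these nuclei. RAMP3 stood at 89.7 and 45.4 CPM in L0 nuclei and 15.4 and 9.42 CPM in L20 nuclei, with both L20 libraries below. MGP stood at 2418 and 1409 CPM in L0 nuclei and 88.3 and 125 CPM in L20 nuclei, the opposite order to milk, and CEBPD at 32.2 and 8.23 CPM in L0 nuclei and 97.7 and 38.2 CPM in L20 nuclei, with both L20 libraries above, also opposite.

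**Figure D4:**
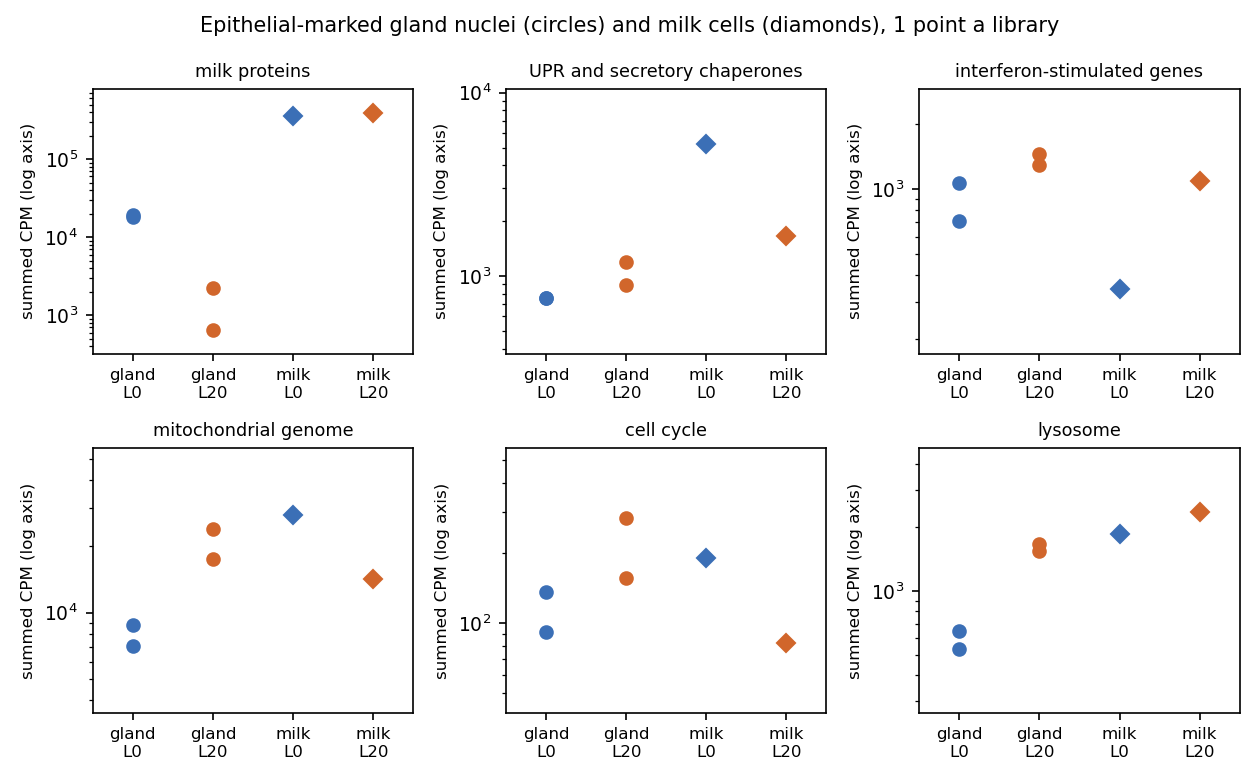
Summed CPM (log axes) of 6 gene lists in epithelial-marked gland nuclei (circles) and milk cells (diamonds) of the libraries labelled L0 and L20, 1 point a library. Secretory chaperones are higher at L20 in nuclei and lower in milk cells, where they are 5226 and 1653 CPM.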

How the data were processed

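Single-cell RNA of 1 milk library per stage was analysed, beside 4 libraries of gland nuclei at the same labelled days. Per the study's methods, the authors ran CeleScope on GEXSCOPE libraries, and the labels' processing notes name Sscrofa11.1. The annotation release was not given in the sources used here. The deposited values are counts of UMIs per gene and cell, not normalized. Here UMIs were summed over the kept cells of each set and divided by their total (CPM). Ratios carry exact conditional binomial 95% intervals and shares exact Clopper-Pearson 95% intervals. With 1 library a group no test was run and no p-value is given. Genes with a mean of at least 10 CPM were counted, and past 2-fold was called higher or lower.

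The cell sets, members and 38 gene lists were chosen with earlier results of these data known. Named genes had a symbol and at least 100 CPM in 1 library, ranked by the interval bound nearest 1, 10 each way in epithelial-marked and marker-free cells and 5 each way over all cells. List members were named by highest mean level (up to 4) or largest ratio (up to 2 each way). Any other gene named was chosen after its values were seen. The split by milk protein share, the leukocyte filter, the use of CSF3R alone and the counting of marked cells whatever their epithelial marker UMIs were also chosen after seeing the data.

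Alternatives were TMM factors (edgeR 4.0.16), DESeq2 1.42.0 size factors, totals without milk protein and mitochondrial genes, a stricter cell filter, equal weight per cell, other filters on low levels, other marker minimums, thinning, and removal of doublets and shared barcodes. Scripts ran in Python 3.11.15 with scipy 1.17.1 and scanpy 1.11.5 and were tested on data made with known ratios. Gestation, involution and tissue section samples were not used here.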

Additional observations from a re-analysis of the deposited data

Results flagged for a closer look

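In 3 gene lists of which at least 3 genes were tested, the summed ratio of L20 over L0 in epithelial-marked milk cells was past 2-fold and the order was the opposite in another set of libraries or cells. None of these differences was tested. The 2 that set milk beside nuclei rest on the stage labels of the milk libraries, which are in doubt. With those labels exchanged, the ratios of secretory chaperones and cell cycle genes would be 3.16 and 2.31, in the order of the nuclei. Interferon-stimulated genes, at 3.16 as labelled, and MHC class I, at 2.30, share the order of the nuclei now and would become opposite. So would CLU, PTHLH, TIMP1 and RAMP3. Of the interferon sums in epithelial-marked milk cells, 344 and 1089 CPM, IFI6 alone held 65.8 and 574 CPM. Secretory chaperones had a summed ratio of 0.316 in epithelial-marked milk cells, while both L20 libraries of gland nuclei lay above both L0 libraries. Cell cycle genes had a ratio of 0.432 in epithelial-marked milk cells, again with both L20 libraries of nuclei above both L0 libraries. Most of the 38 gene lists had that order in these nuclei. Lists within 2-fold in milk could also be opposite in nuclei, among them the mitochondrial genome, at 0.511 in milk, and the lactose and glucose list, at 1.33. Complement genes had a summed ratio of 2.25 in epithelial-marked cells and of 0.453 in marker-free cells of the same milk libraries, where the second value was also past 2-fold. The complement sum in epithelial-marked cells went from 146 to 329 CPM, and C3 alone from 26.7 to 228 CPM. Of the 6 complement genes tested there, 2 were higher and 2 lower, and their median log2 ratio of -0.22 had the same sign as the -0.62 of marker-free cells.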

How the results depend on the processing

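Of the median log2 ratios of lists recomputed under the alternatives, 847 moved by under 0.5, 87 moved further and 4 that were past 2-fold changed sign. Of 647 whose main value was within 2-fold, 82 changed sign, among them 9 in epithelial-marked cells with TMM factors, 9 with DESeq2 factors and 6 with each in marker-free cells. Of the log2 ratios of named genes, 219 moved by less than the half-width of their own counting interval, 211 moved further and 0 changed sign. The causes were not tested. For genes past 2-fold over all cells, equal weight per cell gave 532 higher, totals without milk protein and mitochondrial genes 1153 lower, a mean of at least 50 CPM 483 higher and 190 lower, and no filter but 3 UMIs 2977 higher and 5618 lower. In epithelial-marked cells, TMM factors gave 392 higher and 336 lower, DESeq2 factors 408 and 303, totals without milk protein and mitochondrial genes 278 higher, equal weight 586 higher, at least 50 CPM 57 higher and 254 lower, a marker minimum of 1 UMI 279 higher, cells with leukocyte UMIs left out 117 higher, milk-protein-rich cells 99 higher and 1763 lower, and no filter 3521 and 3914. In marker-free cells, DESeq2 factors gave 2388 higher and 296 lower, TMM factors 333 lower, equal weight 763 higher, the stricter cell filter (500 genes, 10% mitochondrial UMIs) 917 lower, at least 50 CPM 487 higher and 248 lower, and no filter 3063 and 7476. The lower filters count more genes by construction.

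Thinning applied the bar on epithelial marker UMIs to the thinned counts, so it changed the cells of the barred sets as well as their depth. Share ratios of L20 over L0 under thinning were 0.414 for epithelial-marked, 1.26 for C1Q-marked, 0.783 for CSF3R-marked, 0.407 for dividing and 2.18 for endothelial-marked cells. With a marker minimum of 1 UMI they were 0.347, 1.48 and 1.03 for epithelial-, C1Q- and CSF3R-marked cells, and 1.53 and 2.60 for basal and endothelial sets. Under the stricter cell filter they were 0.347 for epithelial-, 6.06 for T-, 1.04 for CSF3R- and 6.61 for endothelial-marked cells, and CSF3R alone gave 1.16. The CSF3R order thus turned under 3 of these. With cells that hold epithelial marker UMIs kept, they were 1.25 for C1Q-, 0.819 for CSF3R-, 0.348 for dividing, 0.584 for basal and 2.88 for endothelial-marked cells, so the basal order turned. That setting was not thinned. The medians past 2-fold that changed sign lay in epithelial-marked cells. They were inflammatory cytokines, -0.18 without leukocyte UMIs and -0.076 in rich cells, and MHC class II, -0.59 and -0.90. The median of all genes in rich cells was -0.81. LGALS3 in rich cells, at a log2 ratio of 0.69, was the named gene that fell within 2-fold under an alternative. No paired analysis was possible because each group is 1 library, and no replicate could be left out. Removing doublets meant 1 and 0 cells.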

Other observations

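The gene HPS5, chosen after its values were seen, stood at 36456 and 82722 CPM in epithelial-marked cells and 2068 and 8823 CPM in marker-free cells. The RefSeq annotation places serum amyloid A genes, acute phase proteins, beside HPS5, so the gene behind these UMIs is uncertain. JCHAIN stood at 44.9 and 1188 CPM in T-marked cells, with 94.1% of its UMIs in L20 from a single cell. HBB, a globin of red cells, stood at 174 and 46.9 CPM in marker-free cells, with 92.1% of its UMIs in L0 from a single cell.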
